A study of Rattus norvegicus with 15 samples.

Results

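The Roux limb (RL), the intestinal segment that carries food from the small upper stomach pouch after Roux-en-Y gastric bypass (RYGB), was compared with the corresponding intestinal segment of sham-operated rats of the same diabetic strain. The comparison used 10 of the 15 arrays of the series, 5 per group, and covered 13024 named genes out of 17338 with a named probe. Both groups were male Goto-Kakizaki (GK) rats, an inbred, nonobese line with spontaneous type 2 diabetes, operated on at the age of 16 wk and sampled 14 wk postoperation after overnight fasting. GK-S-30 rats had RYGB with an RL of 30 cm, and GK-Sham-PF rats had an intestinal incision that was closed again without rearrangement and were pair-fed. The other 5 arrays, of Wistar rats without diabetes, entered the fit for the estimate of spread only. They also entered the normalization, the filter on dim probes and the choice of the brightest probe. Each array held the RNA of 1 sample labelled as a separate replicate. The study's methods describe an RL segment cut near its junction with the stomach pouch, and the corresponding segment of the sham rats. Whether the muscle layers were taken in equal proportion in every sample is not given in the sources used here. The question was which genes of the RL differed from those of the sham segment, with weight on processes outside cholesterol (CHOL), glucose and β-oxidation.

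The intestinal wall is built of layers. An epithelium of enterocytes, mucus-secreting goblet cells, hormone-secreting enteroendocrine cells, antimicrobial Paneth cells and chemosensory tuft cells lines the lumen, with lymphocytes and mast cells within and below it, and coats of smooth muscle with an enteric nerve plexus surround it. After RYGB the RL receives food directly from the stomach pouch, without bile or pancreatic juice until it meets the biliopancreatic limb.

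The labelled tissue matched its markers. Epcam, an epithelial adhesion protein, had a mean log2 signal of 14.76 in the sham arrays and 14.81 in the RL arrays, and Fabp2, the intestinal fatty acid-binding protein, of 17.81 and 17.71. Cdh17, the intestinal cadherin, was at 16.19 and 16.25. Levels are log2 of the scanner's signal after quantile normalization, in which 1 unit is a 2-fold difference. The 75th percentile of the raw signal ranged from 224.5 to 384.3 over the 15 arrays, and 66.7% to 74.8% of probes were well above background. GK-Sham-PF replicate 5 was the dimmest of the 10 arrays, at 224.5. GK-Sham-PF replicate 4 stood apart from the other sham arrays in smooth muscle genes. The arrays lay on 4 slides, of which only 1, here called slide C, held both groups (GK-Sham-PF replicates 4 and 5, GK-S-30 replicates 1 and 2). The tissue was measured in bulk, so fewer cells of a type and less RNA per cell cannot be told apart.

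Of the 13024 genes tested, 1257 (9.65%) differed between the RL and the sham segment by limma with a Benjamini-Hochberg adjusted p under 0.05. Of these, 672 (5.16%) were higher and 585 (4.49%) were lower in GK-S-30. All 5 GK-S-30 arrays lay above all 5 GK-Sham-PF arrays for 606 genes (4.65%) and below them for 566 (4.35%). At least a 2-fold difference beside the adjusted p was seen for 201 higher and 88 lower genes. The median log2 fold change of all genes was −0.03. With slide as a fixed block, an estimate that rests on slide C for this contrast, 285 genes passed, 252 of them among the 1257. With that term, each of the 169 called genes of the lists and of the largest changes kept its direction, and 57 of them passed the threshold. The slide C arrays were among those that made the calls, so the shared direction is not independent support. Below, "rose" and "fell" refer to genes with an adjusted p under 0.05 in the 15-array fit.

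The largest rises were in epithelial defence genes. Mptx1, a pentraxin of mucosal secretory cells, read 1.53, 1.99, 5.46, 9 and 1.34 in the 5 GK-Sham-PF arrays and 13.03, 14.54, 12.57, 9.45 and 12.89 in GK-S-30. It was well above background on 2 of 5 sham arrays, and GK-Sham-PF replicate 4 came close to the lowest GK-S-30 array. The difference was 8.63 ± 1.31 (log2 fold change ± SE, n = 5 per group, limma adjusted p = 0.000867), and with the slide term it was 8.62 with an adjusted p of 0.0559.

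Duox2, the dual oxidase that releases hydrogen peroxide at the epithelial surface, was at 7.71, 7.50, 8.39, 10.41 and 7.14 in GK-Sham-PF and at 14.83, 15.61, 14.17, 13.71 and 14.19 in GK-S-30. Every RL array exceeded the highest sham array by more than 3 log2 units, and the mean difference was 6.27 ± 0.50 (limma adjusted p = 5.69e-06). The related oxidase Duox1 differed by 0.24 ± 0.19 (limma adjusted p = 0.488).

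Reg1a, a secreted C-type lectin of the regenerating family, was at 6.73, 6.04, 7.28, 5.88 and 9.10 in GK-Sham-PF and at 12.82, 12.89, 11.96, 10.05 and 12.37 in GK-S-30. The groups did not overlap, and Reg1a rose by 5.01 ± 0.63 (limma adjusted p = 0.000221). Reg3g, a lectin that binds Gram-positive bacteria, was at 10.08, 11.21, 14.93, 11.10 and 16.55 in the sham arrays and between 16.16 and 16.88 in the RL. Its sham arrays thus spread over more than 6 log2 units and 1 of them reached the RL level, with a difference of 3.76 ± 0.96 (limma adjusted p = 0.0234). Leaving out any 1 of GK-Sham-PF replicates 1, 2 and 4 or GK-S-30 replicate 5 ended the call of Reg3g, and its near relative Reg3b differed by 2.75 ± 0.85 (limma adjusted p = 0.055). Of the 13 tested Paneth and Reg antimicrobial genes, 3 rose (Mptx1, Reg1a, Reg3g) and 10 did not pass. The Paneth cell markers Lyz2, a lysozyme, and Pla2g2a, a secreted phospholipase, gave −0.35 ± 0.13 and −0.11 ± 0.19.

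A pair of surface proteins that protect cells from complement were also among the largest rises. In a list of 16 tested complement genes, put together after the values were seen, 3 rose, 2 fell and the median was 0.04. Cd55, which dissociates complement convertases, was at 8.74, 7.89, 8.76, 9.25 and 7.85 in GK-Sham-PF and at 11.77, 12.62, 10.81, 10.86 and 10.93 in GK-S-30. Cd59b, which blocks the membrane attack complex, ranged from 10.17 to 11.27 in the sham arrays and from 12.95 to 13.70 in the RL. Both sets of arrays were fully separated, with differences of 2.90 ± 0.34 for Cd55 and 2.6 ± 0.23 for Cd59b (limma adjusted p = 0.000146 and 9.35e-06).

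Chemokines and cytokines of mucosal inflammation did not follow the oxidase. Among the 17 tested genes of the dual oxidase and epithelial inflammation list, 2 rose (Duox2 and Il18) and 2 fell (Cxcl1 and Nfkbia), with a list median of −0.36. Il18, an epithelial cytokine of the interleukin-1 family, rose by 0.82 ± 0.12 from sham values of 11.06 to 11.51 to RL values of 11.89 to 12.37 (limma adjusted p = 0.000946). Cxcl1, a neutrophil-attracting chemokine, gave 6.90, 9.46, 7.99, 9.40 and 7.36 in GK-Sham-PF against 6.19, 5.65, 7.33, 4.34 and 5.88 in GK-S-30, and 1 sham array lay below the highest RL array. It fell by 2.35 ± 0.67 (limma adjusted p = 0.0399), a call lost without any 1 of 7 of the 10 arrays. Lcn2, a siderophore-binding neutrophil and epithelial protein, gave −1.16 ± 0.44 (limma adjusted p = 0.114). Cxcl10, an interferon-induced chemokine for T cells, fell by 2.09 ± 0.26 (limma adjusted p = 0.000199) from 8.32, 8.45, 8.82, 7.97 and 8.73 to 6.60, 5.77, 6.97, 6.64 and 5.87, without overlap. Ubd, a ubiquitin-like protein also induced by interferon, fell by 2.01 ± 0.28 (limma adjusted p = 0.000497). Of the 36 tested interferon-stimulated genes, which include Cxcl10, 1 rose (Oas1a, 0.67), 3 fell (among them Cxcl10 and Cxcl11) and 14 had higher means in the RL. Their median was −0.25, and 2 were higher and 8 lower at an unadjusted p under 0.05. The calls of Nfkbia and Cxcl11 were each lost without any 1 of 7 of the 10 arrays.

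**Figure D1:**
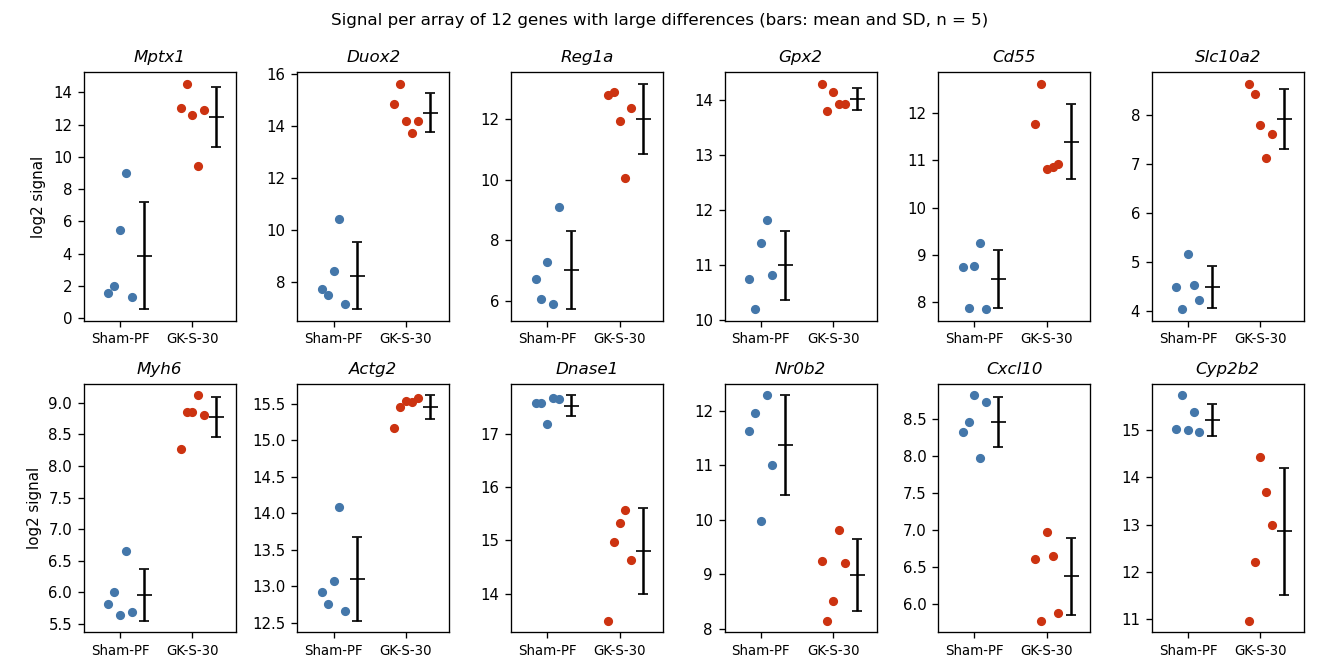
Log2 signal (y axis, a separate scale for each gene) of 12 genes with large differences, 1 point per array for GK-Sham-PF (blue) and GK-S-30 (red), with the mean and SD of 5 arrays as black bars. The RL arrays lay fully above the sham arrays for Mptx1, Duox2, Reg1a, Gpx2, Cd55, Slc10a2, Myh6 and Actg2 and fully below them for Dnase1, Nr0b2, Cxcl10 and Cyp2b2.

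Some genes of redox defence rose, and the metallothioneins fell. In the NRF2 and glutathione list 6 of 22 genes rose, 1 fell and the median was 0.21. Gpx2, the gastrointestinal glutathione peroxidase, went from 10.75, 10.20, 11.40, 11.82 and 10.83 to 14.30, 13.80, 14.15, 13.93 and 13.94, a difference of 3.03 ± 0.24 (limma adjusted p = 5.69e-06). The arrays did not overlap, but a second Gpx2 probe gave 1.13. Gclc, the catalytic subunit of glutathione synthesis, rose by 1.14 ± 0.29, the thioredoxin gene Txn1 by 0.74 ± 0.13 and the pentose phosphate enzyme Tkt by 0.65 ± 0.12. A second probe for Txn1 gave −0.13, and Gclc lost its call without any 1 of GK-Sham-PF replicate 5 and GK-S-30 replicates 1 and 5. Gpx3, the secreted peroxidase, fell by 0.69 ± 0.13.

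Mt1 and Mt2A, the metallothioneins that bind zinc and copper, fell together. Mt1 was at 16.77, 17.29, 17.15, 16.43 and 16.66 in GK-Sham-PF and at 14.53, 15.07, 15.78, 15.63 and 14.99 in GK-S-30, and Mt2A was at 14.42, 15.11, 14.96, 14.10 and 14.23 against 12.15, 12.31, 13.29, 13.09 and 12.43. No array overlapped for either gene. Mt1 fell by 1.65 ± 0.28 and Mt2A fell by 1.91 ± 0.33 (limma adjusted p = 0.0019 and 0.00223). The 2 transcripts are near-identical in parts, so their probes may share signal. The promoter windows of the pair and of Gpx2 are shown because each holds the short motif through which metals or oxidants are known to act on such genes. They are RefSeq windows of build GRCr8, from 250 bases before to 50 bases after the annotated start, read 5′ to 3′ on the gene's minus strand. Capitals mark TGCACNC or TGCGCNC, the core of the metal response element, on either strand in Mt1 (chr19:10832926-10833225) and Mt2A (chr19:10838659-10838958), and TGACNNNGC, the core of the antioxidant response element, on either strand in Gpx2 (chr6:101229984-101230283).
Mt1: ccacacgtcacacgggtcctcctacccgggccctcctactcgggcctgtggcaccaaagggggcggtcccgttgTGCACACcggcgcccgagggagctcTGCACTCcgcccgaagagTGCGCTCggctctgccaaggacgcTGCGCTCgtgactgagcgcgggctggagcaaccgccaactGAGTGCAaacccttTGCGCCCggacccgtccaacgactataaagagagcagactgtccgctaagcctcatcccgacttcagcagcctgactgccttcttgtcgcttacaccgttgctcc
Mt2A: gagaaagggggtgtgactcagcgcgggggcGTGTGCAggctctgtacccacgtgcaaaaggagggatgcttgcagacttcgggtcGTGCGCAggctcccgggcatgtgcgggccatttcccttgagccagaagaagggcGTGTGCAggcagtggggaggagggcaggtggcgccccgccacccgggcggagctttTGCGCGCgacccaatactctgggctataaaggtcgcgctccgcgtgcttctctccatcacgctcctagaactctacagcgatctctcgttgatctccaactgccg
Gpx2: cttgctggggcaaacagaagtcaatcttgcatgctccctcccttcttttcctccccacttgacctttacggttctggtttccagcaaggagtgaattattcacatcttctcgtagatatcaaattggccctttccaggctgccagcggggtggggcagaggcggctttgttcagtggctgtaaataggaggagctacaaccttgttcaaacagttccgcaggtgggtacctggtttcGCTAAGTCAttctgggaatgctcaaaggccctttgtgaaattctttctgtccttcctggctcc
Mt1 held 6 matches and Mt2A 4, none overlapping another. A match to the metal motif was found in 24.2% of all 33469 promoter windows of this length. It was also in 4 of the 5 windows available for called genes of the iron, zinc and calcium list (Tfrc, Mt1, Mt2A and Atp2b1). The antioxidant motif was found in 12.1% of windows and in 2 of 7 called redox genes, Gpx2 and Me1. Mt1, Mt2A and Gpx2, shown because they hold a motif, are part of these counts, which are thus not independent of that choice. A match is a description of letters and not a bound site.

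Iron uptake genes rose, and calcium genes moved both ways. Slc11a2, the apical iron transporter, was at 9.73, 8.55, 9.08, 7.96 and 8.88 in the sham arrays and between 9.44 and 11.14 in the RL, with overlap of 1 sham array. It rose by 1.5 ± 0.43 (limma adjusted p = 0.0404), a second probe gave 0.20, and the call was lost without any 1 of 7 of the 10 arrays. Tfrc, the transferrin receptor, rose by 1.11 ± 0.28 (limma adjusted p = 0.0207), and GK-S-30 replicates 2 and 4, at 12.23 and 11.58, lay nearest to or within the sham range of 11.45 to 11.79. The Tfrc call was lost without GK-S-30 replicate 5. S100g, the calcium-binding protein calbindin-D9k of enterocytes, fell by 0.86 ± 0.16 from 12.95 to 13.65 in the sham arrays to 12.08 to 12.81 in the RL (limma adjusted p = 0.00413). Atp2b1, the plasma membrane calcium pump, rose by 0.84 ± 0.20 without overlap (limma adjusted p = 0.0151). Over the 16 tested genes of the list, 4 rose and 3 fell, with a median of 0.13, and with slide in the fit 1 rose and 1 fell.

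A few bile acid genes changed, in both directions. In a list of 17 tested genes of bile acid sensing and transport, put together after the values were seen, 2 rose, 2 fell and 13 did not pass. Its median was −0.1. Slc10a2, the sodium-dependent transporter that takes up bile acids in the ileum, was at 4.48, 4.03, 5.16, 4.52 and 4.22 in GK-Sham-PF and at 8.63, 8.43, 7.79, 7.12 and 7.60 in GK-S-30. All RL arrays stood above all sham arrays, with a rise of 3.43 ± 0.30 (limma adjusted p = 9.35e-06) that was 4.16 with the slide term (adjusted p = 0.000541). Fabp6, the ileal bile acid-binding protein, rose by 1.71 ± 0.42 (limma adjusted p = 0.0195), with overlap through GK-Sham-PF replicate 1 at 9.32, and lost its call without either GK-Sham-PF replicate 2 or GK-S-30 replicate 5. Nr0b2, a corepressor induced by bile acids through FXR, was at 11.63, 11.96, 9.98, 12.29 and 11 in the sham arrays and at 9.25, 8.15, 8.51, 9.81 and 9.21 in the RL, without overlap. It fell by 2.38 ± 0.43 (limma adjusted p = 0.00329). The whole list of genes expressed mainly in the distal intestine, which was not limited to genes beyond those above, did not move one way. Of its 15 tested genes 3 rose, 3 fell and the median was 0.

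Enzymes of xenobiotic metabolism were among the largest falls. Cyp2b2 was at 15.02, 15.74, 15, 15.39 and 14.96 in GK-Sham-PF and at 10.97, 12.21, 14.44, 13.69 and 13.00 in GK-S-30. The groups were apart by little at the highest RL array, and GK-S-30 replicates 1 and 2 were the lowest. Cyp2b2 fell by 2.36 ± 0.59 (limma adjusted p = 0.0208), a call lost without GK-Sham-PF replicate 2, and 4 probes ranged from −2.62 to −2.16. Cyp2b1, Cyp2b12, Cyp2b15 and Cyp2b21 fell by 2.11 to 2.32 with the same order of GK-S-30 arrays, and the calls of Cyp2b1, Cyp2b12 and Cyp2b21 were lost without any 1 of 7 of the 10 arrays. These drug-inducible P450 genes are close paralogs, so their probes may read the same transcripts and are not separate evidence. Cyp3a62, an intestinal CYP3A enzyme, fell by 1.21 ± 0.28 and Cyp2j4 by 0.96 ± 0.18 (limma adjusted p = 0.0151 and 0.0037). Ugt2b15, a glucuronosyltransferase of steroids and drugs, fell by 1.96 ± 0.21. In the list of P450 and conjugation enzymes, 6 of 38 genes fell, 2 rose and the median was −0.15. In the fit with slide, 0 of the 38 passed in limma, with a median of −0.12.

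GK-S-30 replicates 1 and 2, which lay on slide C, were also the lowest arrays for Cubn and G6pc1, but not for Dnase1 and Pck1. Cubn, the endocytic receptor for cobalamin bound to intrinsic factor, was at 12.71, 13.74, 12.65, 12.63 and 11.89 in GK-Sham-PF and at 7.84, 9.42, 12.20, 11.56 and 11.59 in GK-S-30. It fell by 2.20 ± 0.66 (limma adjusted p = 0.0473) and lost its call without any 1 of GK-Sham-PF replicates 1 to 4 or GK-S-30 replicates 1 and 2. Dnase1, a secreted nuclease, was at 17.57, 17.57, 17.18, 17.66 and 17.64 in the sham arrays and at 13.49, 14.97, 15.33, 15.57 and 14.63 in the RL, a fall of 2.72 ± 0.28 without overlap (limma adjusted p = 5.64e-05). Among enzymes of gluconeogenesis, G6pc1 fell by 3.48 ± 0.76 and Pck1 fell by 2.53 ± 0.42. The general enterocyte markers did not pass: Anpep gave −0.04 ± 0.36 and Apoa4 −0.13 ± 0.09. Apoa4 read 18.3 or 18.47 on the sham arrays, near the top of the normalized scale, so a rise could hardly show. Of 19 brush border digestive enzymes, 2 rose, Tmprss15 (enteropeptidase, which activates trypsinogen) by 1.70 ± 0.41 and Ggt1 by 1.10 ± 0.25.

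Most smooth muscle genes rose: 16 of 22 tested genes of the contractile apparatus passed, and all 22 had higher means in GK-S-30, with a median of 1.02. Actg2, the enteric smooth muscle actin, was at 12.92, 12.76, 13.07, 14.09 and 12.67 in GK-Sham-PF and at 15.17, 15.45, 15.54, 15.52 and 15.58 in GK-S-30, a rise of 2.35 ± 0.24 (limma adjusted p = 5.96e-05). No array overlapped, and GK-Sham-PF replicate 4 was the highest sham array. Des, the muscle intermediate filament protein, rose by 1.99 ± 0.20, Cnn1, an actin-binding calponin, by 2.23 ± 0.29 and Tagln, transgelin, by 1.45 ± 0.20. Not all genes moved to that extent. Myh11, the smooth muscle myosin heavy chain, differed by 0.83 ± 0.31 (limma adjusted p = 0.112) and a second probe gave −0.01, while Mylk, the kinase of the myosin light chain, differed by 0.30 ± 0.18. The mean level of the list was 11.57 to 11.84 in GK-S-30, 11.27 in GK-Sham-PF replicate 4 and 10.35 to 10.63 in the other 4 sham arrays. With slide in the fit 5 of the 22 genes passed, with a median of 0.84. Of the 13 called genes with a promoter window, 0 held a CArG box, which was found in 1.64% of all windows. This says only that the letters were not in these windows.

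Channels and signalling proteins of muscle moved less, with 5 of 23 rising and 1 falling. Pln, the inhibitor of the sarcoplasmic calcium pump, rose by 0.90 ± 0.16 and Cacna1c, the L-type calcium channel, by 0.95 ± 0.17. Agtr1a, the angiotensin II receptor, fell by 0.74 ± 0.16 (limma adjusted p = 0.0092). Enteric neuron and glial genes did not rise with the muscle: 2 of 21 rose (Calcb and Tac1), 2 fell (Prph and Gfap) and the median was −0.19. Prph, an intermediate filament of peripheral neurons, fell by 0.61 ± 0.15 (limma adjusted p = 0.0176), whereas Uchl1 and Snap25 gave 0.02 ± 0.18 and 0.20 ± 0.24. The Gfap call was lost without any 1 of 9 of the 10 arrays.

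Genes better known from heart and skeletal muscle were found among the top rises. Myh6 was at 5.82, 6.01, 5.64, 6.65 and 5.69 in GK-Sham-PF and at 8.26, 8.85, 8.86, 9.12 and 8.81 in GK-S-30, a difference of 2.82 ± 0.23 (limma adjusted p = 5.69e-06). Myh7, with which it shares much of its sequence, rose by 2.71 ± 0.22, and no array overlapped for either. Klhl31, a kelch protein of striated muscle, was not well above background on any sham array and was at least 3.22-fold higher in GK-S-30, its bound against the lowest signal called above background on each sham array (limma adjusted p = 1.12e-05). A list of 22 tested striated muscle genes, put together after these values were seen, held 9 that rose, 2 that fell (Hrc and Tnni2) and 11 that did not pass. Sgca, a sarcoglycan, rose by 1.95 ± 0.27, Flnc, the muscle filamin, by 2.13 ± 0.30 and Actn2, a Z-disc actinin, by 1.36 ± 0.18. Sgca was well above background on 3 of the 5 sham arrays. Ckm, the muscle creatine kinase, and Mb, myoglobin, gave 0.34 ± 0.14 and −0.04 ± 0.16.

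Matrix genes rose in part. Of 28 tested, 10 rose and the median was 0.39. With slide in the fit 4 rose, and with the smooth muscle level as a covariate 0 passed in limma and the median was 0.07. That level did not overlap between the groups, so this term cannot tell muscle content from group. Timp1, an inhibitor of matrix metalloproteinases, went from 9.92, 10.53, 10.47, 10.32 and 10.34 to 11.86, 11.69, 11.55, 12.05 and 12.15, a rise of 1.54 ± 0.29 without overlap (limma adjusted p = 0.00449). Tnc, tenascin C, rose by 1.44 ± 0.16 and Fn1, fibronectin, by 1.22 ± 0.14, and Col3a1 and Col1a1, fibrillar collagens, by 0.76 ± 0.13 and 0.60 ± 0.16. The Col1a1 call was lost without any 1 of 7 of the 10 arrays. Dcn, decorin of fibroblasts, gave −0.06 ± 0.12, and the gelatinase Mmp2 −0.24 ± 0.13. The hyaluronan synthases moved apart. Has2 was at 3.48, 3.12, 3.31, 3.96 and 2.74 in GK-Sham-PF and at 7.56, 9.16, 4.40, 4.63 and 5.10 in GK-S-30, well above background on 2 of the 5 sham arrays. The 2 high RL arrays were those of slide C, and the rise of 2.85 ± 0.71 (limma adjusted p = 0.0211) lost its call without GK-S-30 replicate 1. Has1 fell by 2.30 ± 0.63 (limma adjusted p = 0.0315), and its call was lost without any 1 of 8 of the 10 arrays.

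**Figure D2:**
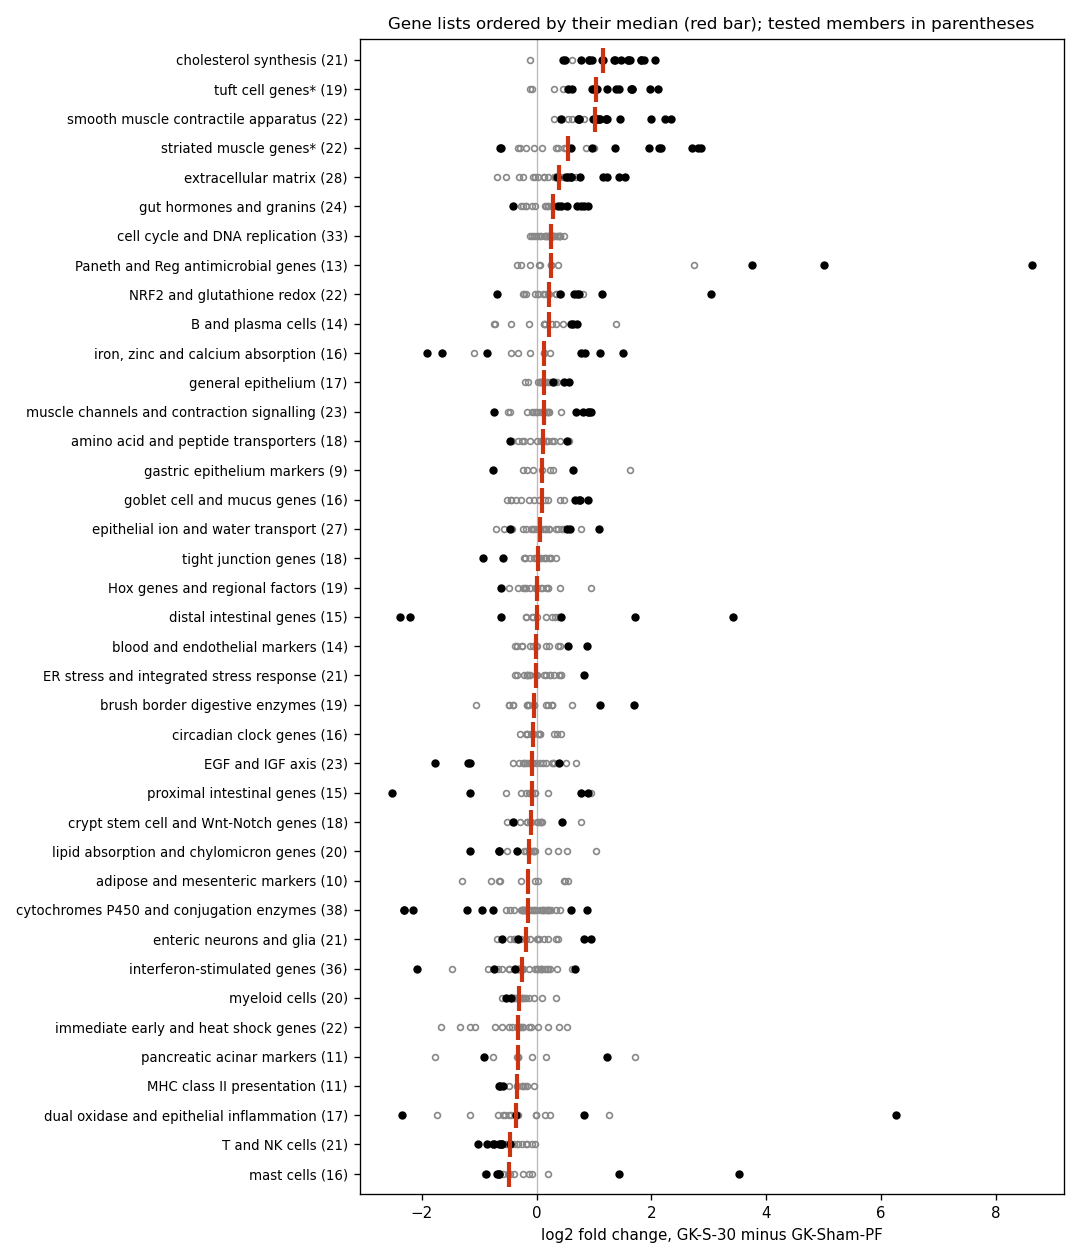
Log2 fold change, GK-S-30 minus GK-Sham-PF (x axis), of each tested gene of the lists (y axis, with the number tested), filled where limma's adjusted p was under 0.05 and open where it was not. Red bars mark list medians, which ran from −0.48 for mast cells to 1.16 for cholesterol synthesis, and asterisks mark the 2 plotted lists, tuft and striated muscle, that were put together after the values were seen.

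Tuft cells, rare chemosensory cells of the epithelium that signal with acetylcholine, leukotrienes and interleukin-25, gave another group of rises. Avil and Sh2d7, which are high in these cells, stood out among the largest rises, so a list was put together after the values were seen and carries no independent weight. Of its 19 tested genes, 14 rose, and the median was 1.04. With the mean level of the smooth muscle list as a covariate, 0 of the 19 passed in limma and the median was 0.36. This covariate did not overlap between the groups, so a call lost with it does not separate muscle content from group. Pou2f3, the transcription factor that specifies tuft cells, was at 6.16, 5.10, 6.40, 7.06 and 6.21 in GK-Sham-PF and at 7.39, 8.04, 7.45, 7.26 and 7.67 in GK-S-30. The arrays did not overlap and the rise was 1.38 ± 0.29 (limma adjusted p = 0.00864), though a second probe gave −0.13. Dclk1, a kinase used as a tuft cell marker, rose by 1.67 ± 0.31 on the brightest probe and by at least 1.24 on each of 4 probes (limma adjusted p = 0.00385 on the brightest).

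Sh2d7, an adaptor protein, was at 3.70, 2.62, 4.46, 5.22 and 4.34 against 6.07, 6.81, 6.24, 5.48 and 6.26, and Avil, an actin-binding advillin, at 8.37, 7.21, 9.24, 9.84 and 8.68 against 10.33, 11.08, 10.69, 10.17 and 10.93. In both genes GK-Sham-PF replicate 2 was the lowest and replicate 4 the highest sham array. The rises were 2.11 ± 0.38 and 1.97 ± 0.38 (limma adjusted p = 0.00348 and 0.00498). Trpm5, the taste transduction channel, rose by 1.64 ± 0.43, Sucnr1, the succinate receptor, by 1.67 ± 0.30, Il17rb, a chain of the interleukin-25 receptor, by 1.04 ± 0.21 and Alox5ap, needed for leukotriene synthesis, by 1.00 ± 0.18. Sh2d7 and Sucnr1 were each well above background on 4 of the 5 sham arrays. Hpgds, the prostaglandin D synthase, gave −0.08 ± 0.20. The Trpm5 call was lost without any 1 of GK-Sham-PF replicates 2 and 5 or GK-S-30 replicates 2, 3 and 5. With slide in the fit, 0 of the 19 genes passed in limma, with a median of 0.78. Without GK-Sham-PF replicate 4 the count was again 14, and the lowest count, 11, came without GK-S-30 replicate 2.

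Other epithelial lineages changed in fewer genes. Among goblet cell and mucus genes 4 of 16 rose and the median was 0.09: Gcnt3 and Fut2, which build mucin glycans, by 0.89 ± 0.14 and 0.76 ± 0.15, Clca1, a secreted goblet cell protease, by 0.73 ± 0.17, and the transcription factor Klf4 by 0.67 ± 0.18. The Klf4 call was lost without any 1 of GK-Sham-PF replicates 2 and 3 or GK-S-30 replicate 1. Muc2, the main secreted mucin, gave 0.48 ± 0.16 (limma adjusted p = 0.0798), and Tff3 0.04 ± 0.08. Of 24 hormone and granin genes, 7 rose and 1 fell. Sct, secretin, was at 12.39, 12.43, 12.77, 12.71 and 13.19 in the sham arrays and at 13.10, 13.26, 14.09, 13.58 and 13.95 in the RL, a rise of 0.90 ± 0.19 with 1 overlapping sham array (limma adjusted p = 0.00913). Tac1, the substance P precursor, rose by 0.82 ± 0.14 and Tph1, the rate-limiting enzyme of gut serotonin, by 0.53 ± 0.13. Cck and Gcg, the precursors of cholecystokinin and of glucagon-like peptides, rose by 0.78 ± 0.24 and 0.42 ± 0.12 (limma adjusted p = 0.0491 and 0.0409). The Cck call was lost when any 1 of 9 of the 10 arrays was left out, and the Gcg call with any 1 of 8. Gip and Pyy gave −0.28 ± 0.14 and 0.16 ± 0.36. With slide in the fit, 0 of the 24 passed in limma with a median of 0.01.

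T and NK cell genes were lower in the RL. All 21 tested T and NK cell genes had lower means in GK-S-30, 9 fell and 12 did not pass, with a median of −0.47. Cd3e, a chain of the T cell receptor complex, was at 8.02, 7.68, 7.71, 7.85 and 7.28 in GK-Sham-PF and at 6.46, 6.81, 7.28, 7.14 and 7.07 in GK-S-30, the lowest sham array matching the highest RL array to within rounding. It fell by 0.76 ± 0.16 (limma adjusted p = 0.0089). Cd8b, a chain of the cytotoxic T cell coreceptor, fell by 0.87 ± 0.19 and Itgae, the integrin that holds intraepithelial lymphocytes to E-cadherin, by 0.61 ± 0.12 (limma adjusted p = 0.0097 and 0.00594). Ccl5, a chemokine of cytotoxic cells, fell by 1.02 ± 0.22 from 14.21, 14.17, 14.07, 14.39 and 13.11 to 12.59, 12.55, 13.35, 12.97 and 13.38. GK-Sham-PF replicate 5, the dim array, was the low one for Ccl5 and Cd8a, and 10 T and NK genes fell when it was left out. Without GK-Sham-PF replicate 4, 5 fell. With slide in the fit, 2 did, with a median of −0.55.

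MHC class II genes fell in part: 3 of 11, with all 11 means lower in GK-S-30 and a median of −0.34. The count was 0 in limma both with slide in the fit and without GK-Sham-PF replicates 4 and 5, and 1 with 75th percentile scaling, with medians of −0.26, −0.46 and −0.31. RT1-Db1, a β chain, was at 13.80, 13.50, 13.81, 13.79 and 13.63 in GK-Sham-PF and at 12.62, 13.32, 13.18, 13.27 and 12.93 in GK-S-30, a fall of 0.64 ± 0.15 without overlap (limma adjusted p = 0.0161). RT1-Bb and RT1-Da fell by 0.65 ± 0.14 and 0.58 ± 0.15, and the RT1-Da call was lost without any 1 of 5 of the 10 arrays. Of 20 myeloid genes 2 fell, the Fc receptor chain gene Fcer1g by 0.45 ± 0.12 and the complement gene C1qc by 0.54 ± 0.16 (limma adjusted p = 0.0229 and 0.0406), and 2 had a higher mean. The Fcer1g call was lost without any 1 of GK-Sham-PF replicates 1 to 3, and the C1qc call without any 1 of the 10 arrays. Plasma cell genes went the other way, with Tnfrsf17, the survival receptor BCMA, Mzb1 and Pou2af1 rising by 0.60 to 0.71, the 3 called of 14 B and plasma cell genes. Without GK-Sham-PF replicate 5, 1 gene of the list rose and 2 fell, and without replicate 3 the count was 0 in limma.

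Mast cell genes were lower for the most part. Of 16 tested, 4 fell, 2 rose and 3 had higher means in GK-S-30, with a median of −0.48. At an unadjusted limma p under 0.05, 9 were lower and 2 higher. With slide in the fit 0 fell and 1 rose, with a median of −0.39. Mcpt1, a chymase of mucosal mast cells, fell by 0.89 ± 0.21, Mcpt8 by 0.65 ± 0.11, Mcpt9 by 0.65 ± 0.15 and Ms4a2, the β chain of the IgE receptor, by 0.69 ± 0.14. The 2 that rose were Rgs13, which tuft cells also express, by 1.44 ± 0.33, and Il1rl1, the interleukin-33 receptor. Il1rl1 was at 4.61, 5.72, 4.99, 4.31 and 4.59 in GK-Sham-PF and at 10.23, 7.68, 6.37, 8.20 and 9.35 in GK-S-30. It rose by 3.52 ± 0.55 without overlap (limma adjusted p = 0.00115), but the second probe of the gene gave −0.14. Its ligand Il33 gave 1.26 ± 0.38 (limma adjusted p = 0.0519), and it was looked up after the receptor's values were seen.

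**Figure D3:**
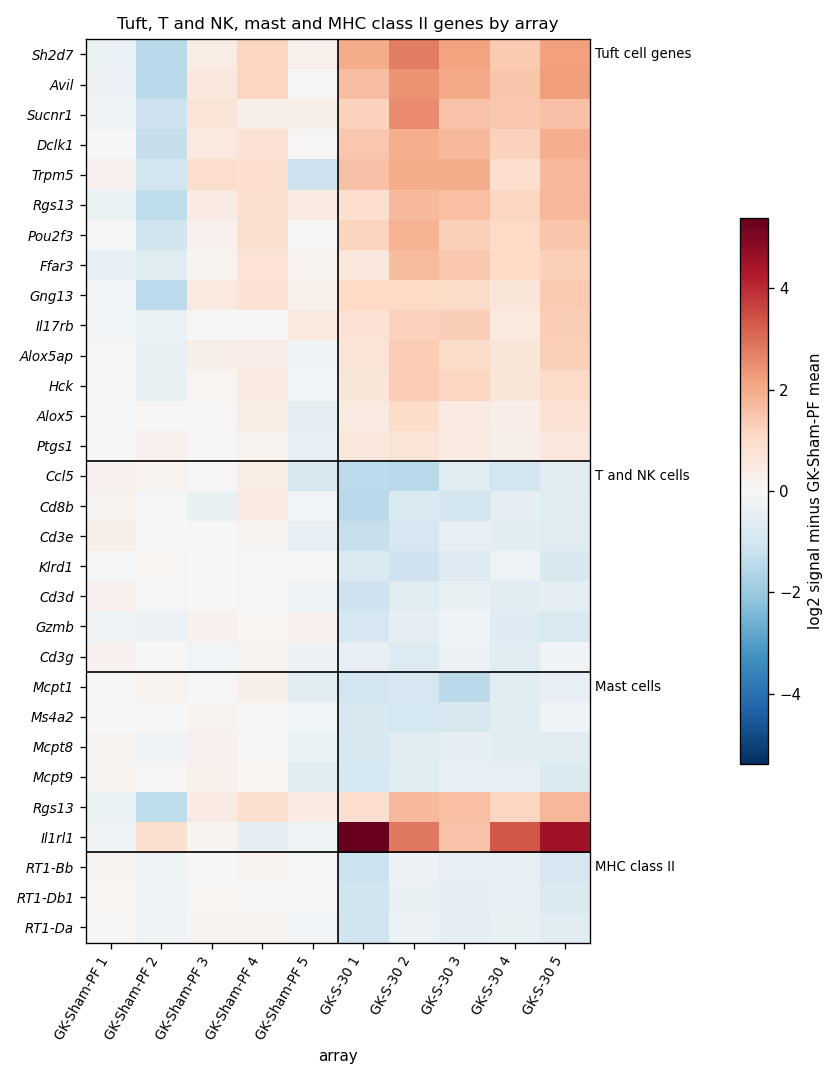
Log2 signal minus the GK-Sham-PF mean (colour) of called tuft, T and NK, mast and MHC class II genes (rows) on the 10 arrays (columns, groups divided by the black line). Members of these lists that were not called are left out, so the directions shown follow from that choice. The tuft genes shown were raised on all 5 GK-S-30 arrays. Most were lowest in GK-Sham-PF replicate 2, but Trpm5, Alox5 and Ptgs1 were lowest in replicate 5. T cell, mast cell protease and MHC genes were lower on the GK-S-30 arrays, most of all on replicate 1 for the MHC genes.

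**Figure D4:**
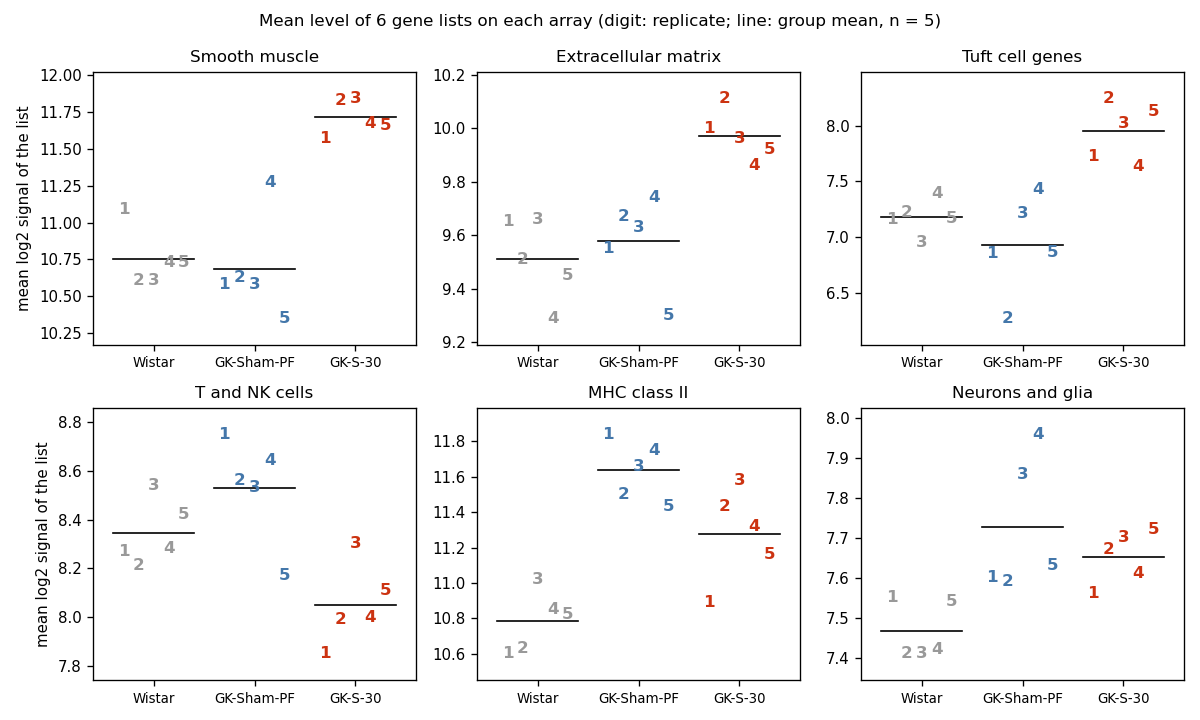
Mean log2 signal of all tested genes of 6 lists (y axis, a separate scale for each) on each array, plotted as the replicate number, with the group mean as a line. The smooth muscle level of GK-S-30 lay above all sham arrays, of which replicate 4 was the highest at 11.27, and T and NK genes overlapped between groups through GK-Sham-PF replicate 5 at 8.17.

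Growth factor genes changed in a few members. Ereg, epiregulin, and Areg, amphiregulin, are ligands of the EGF receptor. Ereg was at 9.25, 9.65, 9.17, 10.18 and 9.88 in GK-Sham-PF and at 7.65, 7.86, 7.84, 7.77 and 8.14 in GK-S-30, a fall of 1.77 ± 0.25 without overlap (limma adjusted p = 0.000545). Areg fell by 1.17 ± 0.17 and Igfbp3, the main carrier of insulin-like growth factors, by 1.20 ± 0.15 (limma adjusted p = 0.000615 and 0.000243). All 3 passed with slide in the fit as well. Tgfa, another ligand of the receptor, rose by 0.39 ± 0.11, a call lost without any 1 of 7 of the 10 arrays, and the other 19 of 23 genes did not pass. In the cell cycle and DNA replication list, 0 of 33 genes passed in limma, 29 had higher means in GK-S-30 and the median was 0.25. Of these genes 6 had an unadjusted p under 0.05, all higher, and the Tukey-corrected test named in the study's methods gave 4 at p under 0.05 and 0 after Benjamini-Hochberg adjustment.

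A few lipid absorption genes fell, and most CHOL synthesis genes rose. Of 20 lipid absorption and chylomicron genes, 4 fell and the median was −0.13: Apoc3 by 1.16 ± 0.24, Apoc2 by 0.65 ± 0.14, the triglyceride-forming Dgat2 by 0.65 ± 0.14 and Mttp, which loads lipid onto apolipoprotein B, by 0.34 ± 0.09. A second Apoc2 probe gave 0.23, and the Mttp call was lost without any 1 of 5 of the 10 arrays. In the fit with slide, 0 of the 20 passed in limma, with a median of −0.13. Of 21 CHOL synthesis genes 18 rose, with a median of 1.16, and with slide in the fit 12 did.

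**Figure D5:**
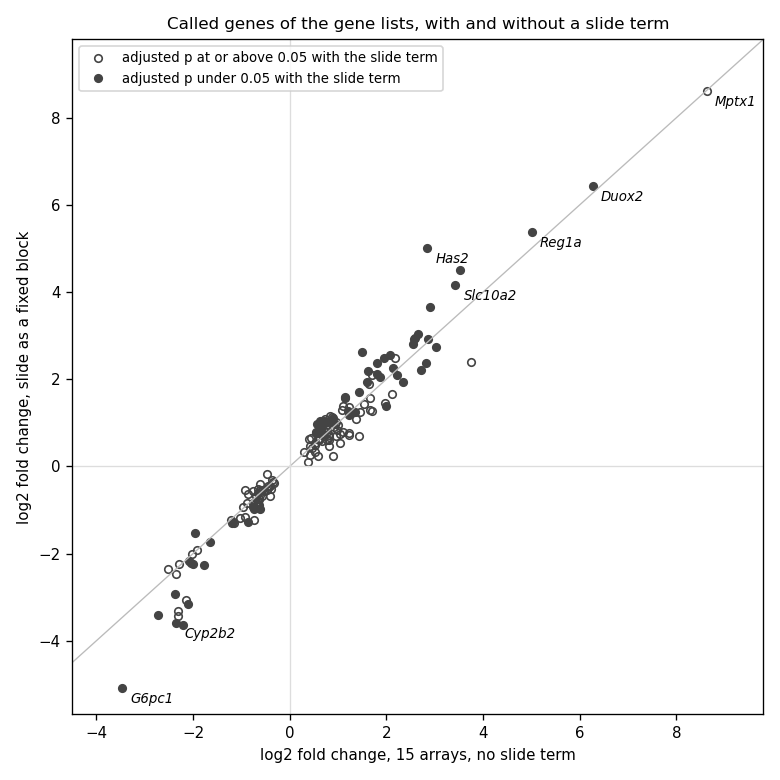
Log2 fold change with slide as a fixed block (y axis) against the 15-array fit without it (x axis) for the 169 called genes of the lists and of the largest changes, filled where the adjusted p was under 0.05 with the slide term. All points lay in the quadrants of equal sign, and G6pc1, Has2 and Cyp2b2 lay farther from 0 with the slide term than without it. The slide C arrays, on which the slide estimate rests, were part of both fits.

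Genes of neighbouring tissues and of handling were examined beside these changes. Of 10 adipose and mesenteric genes 0 passed in limma, with an unadjusted p under 0.05 for 1 higher and 2 lower, and 0 by the Tukey-corrected test at p under 0.05. Adipoq, adiponectin, ranged from 5.74 to 9.88 in the sham arrays and from 6.33 to 8.84 in the RL. Gkn1 and Atp4a, which define gastric mucosa, and Cpa1 and Pnlip, of pancreatic acini, were not bright enough in any group to be tested. Of the tested markers, gastric Tff2, a trefoil peptide, gave 1.62 ± 0.60 and acinar Prss1, a trypsinogen, gave 1.71 ± 0.58 (limma adjusted p = 0.107 and 0.0805), with overlap between the groups for both. In the gastric list Muc6 fell by 0.76 ± 0.14 and Ctse rose by 0.64 ± 0.19 (limma adjusted p = 0.00329 and 0.0426). In the acinar list Ctrb1 fell by 0.92 ± 0.20 and Pnliprp2 rose by 1.22 ± 0.37 (limma adjusted p = 0.0108 and 0.0494). With slide in the fit, 0 genes of either list passed in limma. Of 22 immediate early and heat shock genes 0 passed in limma, 1 higher and 3 lower had an unadjusted p under 0.05, and 0 passed by the Tukey-corrected test at p under 0.05. Their list median was −0.32, and GK-Sham-PF replicate 4 had the highest mean level, at 11.32 against 9.99 to 10.83 on the other 9 arrays. Nr4a3, an immediate early gene outside that list, fell by 2.05 ± 0.57 without overlap (limma adjusted p = 0.0335). Its 3 probes ranged from −2.32 to −0.93. The part of handling in the results above was not tested. For muscle content, the level of the smooth muscle list was used as a covariate. That level was 11.57 to 11.84 in GK-S-30 and at most 11.27 in GK-Sham-PF, so the term takes up much of the group difference. Calls lost with it cannot be assigned to muscle content or to group. Of the CHOL synthesis genes 14 of 21 then rose, with a median of 1.75. Of the T and NK cell genes 0 passed in limma with that term, with a median of −0.87, and of the hormone genes 0 passed, with a median of 0. Of the striated muscle genes 1 rose, and of the redox genes 1 rose. Of 16 clock genes 0 passed in limma, with 1 lower at an unadjusted p under 0.05 and 1 by the Tukey-corrected test.

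The counts of several other lists are given beside the 5.16% of all tested genes that rose and the 4.49% that fell. Some lists lay above these shares and others near or below them. Of 27 epithelial ion and water transport genes 3 rose and 1 fell, and of 18 tight junction genes 2 fell. Of 18 crypt stem cell and Wnt-Notch genes 1 rose and 1 fell, as did 1 and 1 of 18 amino acid and peptide transporters. Among 21 genes of the ER stress response 1 rose, and among 19 Hox genes and regional factors 1 fell. Of 15 genes expressed mainly in the proximal intestine 2 rose and 2 fell. Of 14 blood and endothelial genes 2 rose, and of 17 general epithelial genes 3 rose. Among 11 tested acinar genes 1 rose and 1 fell, as did 1 and 1 of 9 gastric genes. In 4 further lists put together after the values were seen, on complement, type 2 immune signalling, hyaluronan and bile acids, 9 of 58 genes rose and 8 fell.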

How the data were processed

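Total RNA of each sample was hybridised to a 1-colour Agilent rat array. The deposited files hold the scanner's intensity for each probe, background-corrected by the authors with Agilent Feature Extraction (10.7 in the processing notes, 10.7.3.1 per the file headers), and a series table of log2 values that the authors normalized, which served as an alternative here. Intensities were quantile-normalized over 15 arrays and taken to log2. Control spots and outlier flags were left out. Of the probes, 17541 were named by accession, 3098 by symbol and 539 by synonym from RefSeq, 1325 kept the file's name, and 18509 had no name and were not used here. The brightest probe stood for a gene, and dim genes were filtered. A linear model of the 3 groups was fitted with limma (version 3.58.1, under R 4.3.3; files were read with data.table, version 1.17.8), with Benjamini-Hochberg adjustment over 13024 genes at 0.05, and the procedure was tested on simulated data. ANOVA with Tukey's correction follows the study's methods. Named genes are the 15 largest rises and 15 largest falls without overlap between groups (cholesterol synthesis left out), up to 6 called genes per list and direction, and marker genes, and further genes were named after their values were seen. The members and lists were chosen with earlier results of these data known. Within groups, arrays correlated at 0.981 to 0.994 and none was a duplicate. The alternatives were other scalings, background corrections, filters, probe rules, slide terms, a replicate block, a smooth muscle covariate, array weights and leaving out arrays. The number of arrays limits the precision, and p-values measure the spread between samples labelled as replicates.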

Additional observations from a re-analysis of the deposited data

Results flagged for a closer look

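In 25 of 436 groups of 5 arrays, the highest or lowest array stood farther from the others than Dixon's critical value of 0.71 allows, where chance gives about 1 in 20 groups. Of these, 6 were low values of GK-Sham-PF replicate 5, the dimmest sham array. Values are log2 signals. On GK-S-30 replicate 1 Mcpt8 was at 6.84 against 7.09 to 7.17 and Tagln at 13.58 against 13.85 to 13.95 on the other 4 arrays of the group. On GK-S-30 replicate 2 Sucnr1 was at 6.73 against 5.45 to 5.79 on the other 4 arrays of the group. On GK-S-30 replicate 3 Krt20 was at 17.58 against 17.83 to 17.87 on the other 4 arrays of the group. On GK-S-30 replicate 4 Pecam1 was at 6.2 against 4.71 to 4.94 on the other 4 arrays of the group. On GK-S-30 replicate 4 Clca1 was at 15.95 against 16.54 to 16.73 and Tnni2 at 7.21 against 7.83 to 7.94 on the other 4 arrays of the group. On GK-S-30 replicate 5 C1qc was at 10.63 against 10.39 to 10.46 on the other 4 arrays of the group. On GK-S-30 replicate 5 Epcam was at 14.56 against 14.82 to 14.91 on the other 4 arrays of the group. On GK-Sham-PF replicate 1 Cd79a was at 6.51 against 5.39 to 5.69, Fabp6 at 9.32 against 7.19 to 7.64, Pou2af1 at 11.35 against 10.59 to 10.76 and Tnni2 at 8.49 against 8.29 to 8.35 on the other 4 arrays of the group. On GK-Sham-PF replicate 2 Gpx3 was at 9.01 against 8.78 to 8.83 on the other 4 arrays of the group. On GK-Sham-PF replicate 3 Dnase1 was at 17.18 against 17.57 to 17.66 and Slc6a6 at 7.22 against 7.44 to 7.47 on the other 4 arrays of the group. On GK-Sham-PF replicate 4 Actg2 was at 14.09 against 12.67 to 13.07 and Ppp1r14a at 10.94 against 10.21 to 10.38 on the other 4 arrays of the group. On GK-Sham-PF replicate 5 Myh3 was at 5.98 against 5.44 to 5.58 on the other 4 arrays of the group. On GK-Sham-PF replicate 5 Anpep was at 13.83 against 15.21 to 15.52, Ccl5 at 13.11 against 14.07 to 14.39, Cd8a at 7.37 against 8.57 to 8.85, Fcer1g at 11.94 against 12.27 to 12.3, Lum at 5.29 against 6.46 to 6.78 and Mcpt9 at 9.54 against 10.24 to 10.47 on the other 4 arrays of the group.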

How the results depend on the processing

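Against 1257 genes called, of which 53.5% were higher in GK-S-30, the count was 285 with slide as a fixed block (67.4% higher), 1 within slide C alone with 2 arrays against 2, 142 with the smooth muscle list level as a covariate (59.9% higher, and 66 of the 142 among the 1257), 2080 with array weights (44.6% higher), 2120 by ANOVA with Tukey's correction at p under 0.05 (45.8% higher), 504 by the same after Benjamini-Hochberg adjustment (59.9% higher), and 289 when at least a 2-fold difference was required (69.6% higher). The within-slide run has fewer samples, and the slide term rests on slide C for this contrast. The Tukey p under 0.05 has no adjustment over genes, and the 2-fold setting counts a part of the 1257. In the others the cause was not tested. Leaving out 1 array gave 865 to 1197 genes. Leaving out GK-Sham-PF replicates 4 and 5 together, chosen after seeing the data, gave 881. Over other scalings and background corrections 49.7% to 55.5% of calls were higher. With the smooth muscle covariate 7 genes changed sign: Cacna1c to −0.11, Flna to −0.29, Kcnmb1 to −0.28, Alox5 to −0.07, Cldn15 to 0.07, Hrc to 0.05 and Slc9a2 to 0, and the cause was not tested.

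Replicate numbers gave no pairing. Deviations of same-numbered arrays correlated at 0.14, −0.17, −0.02, −0.08 and 0.03, and only GK-S-30 replicate 1 correlated best with its own number. With the replicate block 888 genes were called, 857 of them among the 1257.

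Group and slide overlap on slide C only, so for all other arrays they cannot be told apart. Dim genes near background have little precision.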
